A study of Mus musculus with 24 samples.

Results

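Brain and testis were compared directly, transcript by transcript, on the 3 arrays labelled Brain and the 3 arrays labelled Testis, 6 of the 24 arrays of the series. All 60804 transcript probes of the array entered the comparison, and 2799 of them could be named as lncRNAs from the study's lists of brain, tissue-specific and F9 cell lncRNAs. The RNA came from 8-week-old male mice, with no treatment or genetic change named for either group. The methods give the strain as ICR. The methods call the 3 arrays of a tissue biological replicates, and they label total RNA with Cy3 for a mouse lncRNA array with 60-base probes. The other tissues of the series, heart, kidney and liver, were used only to see where else a transcript was detected.

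Long noncoding RNAs are transcripts that do not code for protein and that are often made in a single tissue or cell type. Brain and testis are known for transcribing more of the genome than most organs. In brain, lncRNAs accompany genes for synapses, myelin and neuronal differentiation, and a group of them is imprinted, that is, made from the copy of 1 parent. In testis, most of the tissue is germ cells on their way through meiosis to sperm, and these cells open large parts of their chromatin.

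The level of a transcript below is the log2 of its background-subtracted intensity minus the 75th percentile of its array, so 0 is that percentile. A difference is the mean level in brain minus that in testis, with its standard error (SE). A transcript was called where it differed at least 5-fold with an adjusted p of 0.05 or less (limma, Benjamini-Hochberg over all probes). The 75th percentile lay at intensities of 119 to 154 on the brain arrays and 305 to 384 on the testis arrays. With this scaling the median difference was 1.06 over all transcripts and 0.93 over those detected in both tissues, and differences are to be read against these values. Arrays of 1 tissue correlated at 0.982 to 0.991, and arrays of different tissues at 0.683 to 0.703, over all transcripts. Replicate 1 of both tissues shared a slide, and replicates 2 and 3 of both shared another. The markers could be checked only in part. All 6 neuronal, 4 oligodendrocyte, 3 astrocyte and 1 microglial markers that could be identified were called higher in brain, and all 6 spermatid, 2 spermatocyte, 2 spermatogonium and 1 Leydig cell markers higher in testis. Of these 25 markers, 24 are on the study's lists of tissue-specific transcripts, which were made from these same arrays, so their direction was fixed by that choice. The exception was Aldoc of astrocytes. The probes of the 14 brain markers and of 3 of the 11 testis markers belong to lncRNAs at these genes and not to their mRNAs. No marker of Sertoli cells or red blood cells could be identified. In whole tissue, more cells of a type and more RNA per cell cannot be told apart.

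The probes that carry the results are shown first, as the study's supplementary tables give them, with the span on GRCm38 given there. Of the transcripts detected in 1 tissue alone, these are the probes of a pair of intergenic lncRNAs of brain. C130071C03Rik lies at chr13:83741126-83741307 on the plus strand and AK079356 at chr4:56957291-56959609 on the minus strand.
C130071C03Rik: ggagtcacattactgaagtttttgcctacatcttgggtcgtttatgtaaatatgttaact
AK079356: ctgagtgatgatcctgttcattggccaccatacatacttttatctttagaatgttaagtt
Meg3, an imprinted lncRNA of chromosome 12 (plus strand), is shown by 4 of its probes because they differed in how far apart they put the tissues. In the order of the gene they lie at chr12:109545122-109545319, chr12:109549418-109549478, chr12:109568220-109568410 and chr12:109568559-109571390.
Meg3 ENSMUST00000129245: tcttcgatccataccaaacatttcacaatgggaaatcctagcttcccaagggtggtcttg
Meg3 ENSMUST00000150851: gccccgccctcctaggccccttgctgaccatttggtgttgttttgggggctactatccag
Meg3 NR_027651: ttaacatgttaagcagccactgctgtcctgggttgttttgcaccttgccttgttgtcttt
Meg3 NR_046475: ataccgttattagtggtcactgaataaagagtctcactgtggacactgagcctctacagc
Among the lncRNAs of the F9 cell list that were detected in both tissues, AK131696 (chr7:4530453-4530575, plus) and AK006989 (chr13:113143918-113144012, plus) had the largest differences toward testis, and capitals mark the runs of 9 or more bases that their probes share. Gm7856 (chr16:91513828-91514633, minus) followed them, and Gm14000 (chr2:121405405-121405473, plus), inside the gene of the sperm ion channel subunit Catsper2, was among the least different.
AK131696: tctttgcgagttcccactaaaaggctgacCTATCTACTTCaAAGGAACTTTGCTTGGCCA
AK006989: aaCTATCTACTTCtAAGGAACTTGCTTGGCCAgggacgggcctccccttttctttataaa
Gm7856: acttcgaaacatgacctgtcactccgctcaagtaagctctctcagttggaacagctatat
Gm14000: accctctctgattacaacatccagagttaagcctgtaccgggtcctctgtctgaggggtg
The Uba6 lncRNA (chr5:86120965-86122304, minus) is shown beside the first 50 bases of Bc1 (chr7:144914470-144914519, plus), a small RNA of neurons, from RefSeq on GRCm38. Capitals mark the bases that are identical in the alignment of both.
Uba6: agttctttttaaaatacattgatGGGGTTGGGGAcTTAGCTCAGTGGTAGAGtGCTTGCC
Bc1: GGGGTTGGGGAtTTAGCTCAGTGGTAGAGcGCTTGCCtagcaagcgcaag
Gm13466 (chr2:45810384-45810470, plus) and Gm14113 (chr2:147290652-147290730, plus) stand for 30 pseudogene probes that share sequence and were chosen after their values were seen. Capitals mark what both have in common in runs of 16 or more bases.
Gm13466: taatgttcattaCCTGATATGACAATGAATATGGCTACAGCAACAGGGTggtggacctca
Gm14113: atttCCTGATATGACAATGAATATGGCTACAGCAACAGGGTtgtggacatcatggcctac

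A transcript was taken as detected on an array where the scanner software flagged its signal as well above background. Shared transcripts, flagged on all 6 arrays, numbered 24982, or 41.1% of the probes. Brain-only transcripts, flagged on 3 brain and 0 testis arrays, numbered 2383 (3.92%). Testis-only transcripts, flagged on 3 testis and 0 brain arrays, numbered 6080 (10.0%). A further 9774 were flagged on 1 or 2 arrays of a tissue and 17585 on none. The testis arrays were the brighter ones, and the order of the exclusive sets depended on it. With 1 common threshold at a level of -3.12, brain-only transcripts numbered 5132 and testis-only 4946, so the larger set was then that of brain. With the software's looser flag, which asks only for a significantly positive signal, the sets held 1307 and 3304 transcripts.

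Over all probes, 9160 transcripts were called higher in brain (15.1%) and 7451 higher in testis (12.3%). Without the fold criterion, an adjusted p of 0.05 or less was reached by 35488 (58.4%) toward brain and 12998 (21.4%) toward testis, which shows the offset left by the scaling. The share of calls that pointed to brain was 55.1%. Scaling by the 75th percentile of the probes detected on all 6 arrays turned the counts to 6668 for brain and 8763 for testis, so that the share was 43.2%. It was 48.4% with quantile normalization and with the median of all probes, 42.2% with the median of the probes detected on each array, and 46.7% with another background correction (normexp). The direction of the majority is therefore set by the scaling, whereas no called transcript changed sign under the scalings tried. With normexp, 426 of those called toward testis changed sign. All 3 brain arrays lay above all 3 testis arrays for 58.6% of the transcripts, and all 3 testis arrays above all 3 brain arrays for 22.2%, against which the statements on overlap below are to be read.

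**Figure D1:**
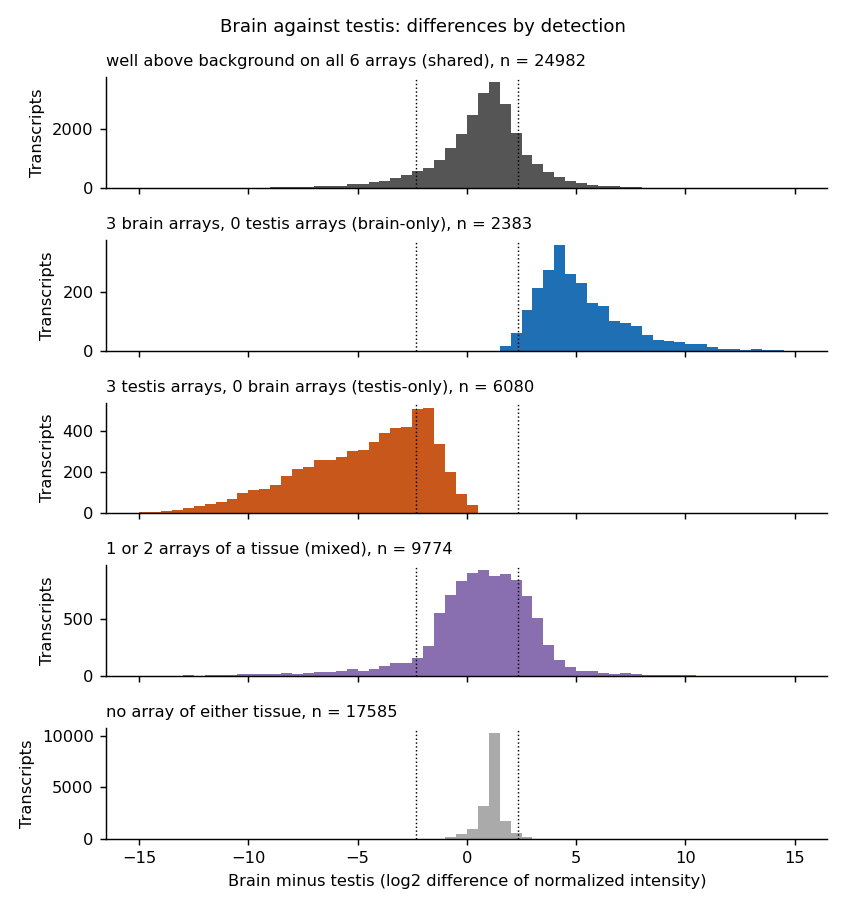
Number of transcripts (y axes, which differ between panels) by the difference between brain and testis (x axis, log2, bins of 0.5), by the arrays on which the probe was well above background. Dotted lines mark 5-fold. The shared transcripts have their median at 0.93, brain-only transcripts lie on the right with a median of 4.74, testis-only transcripts on the left with a median of -4.15 and a longer tail, and the undetected probes form a narrow peak with a median of 1.12.

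Among shared transcripts, 4220 (16.9%) were called higher in brain and 2059 (8.24%) higher in testis, and 18703 were not called. The exclusive sets differ by their definition, so their calls are a description. For them a fold is a lower bound, set by the dimmest signal well above background on the arrays of the other tissue. The bound reached 5-fold for 1851 of the 2383 brain-only and 3095 of the 6080 testis-only transcripts, with medians of 9.31-fold and 5.32-fold. That dimmest signal lay at levels of -3.81 to -3.12 on the brain arrays and -4.87 to -4.44 on the brighter testis arrays. Brain-only bounds are therefore taken against a lower floor, and the bounds of these sets cannot be compared with each other. The largest bounds, of probes with no name here, were 11593-fold in brain and 15008-fold in testis. Of the transcripts not detected on any array, 368 were still called toward brain and 0 toward testis. These are values below the background threshold and have no order.

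The exclusive sets also differed in what the remaining tissues showed. Of the brain-only transcripts, 1195 (50.1%) were not flagged on any array of heart, kidney or liver. Of the testis-only transcripts, 4420 (72.7%) were not. Heart had 402 of the brain-only transcripts (16.9%) on all 3 arrays, kidney 342 (14.4%) and liver 99 (4.15%). For testis-only transcripts the corresponding counts were 276 (4.54%), 394 (6.48%) and 215 (3.54%). The arrays of heart, kidney and liver were dimmer than those of brain and testis, with the 75th percentile at intensities of 30.7 to 107. A dim transcript could be missed on them, so these shares depend on brightness as well as on the tissue. Among shared transcripts, 14538 (58.2%) were detected on all 9 arrays of these tissues as well.

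Of the named brain-only lncRNAs, the one with the largest bound was a transcript of Gap43, whose protein acts in the growth cones of axons. Its levels were 7.39, 7.31 and 7.24 in brain and -5.31, -6.44 and -6.69 in testis, at least 3957-fold apart. A lncRNA of Homer3, which encodes a scaffold protein of the postsynaptic density, was at 6.48, 6.31 and 6.81 against -5.49, -6.14 and -5.74, at least 2298-fold. The groups were far apart on every array, and none of the testis values was above background. A lncRNA of Mobp, a gene of oligodendrocyte myelin, followed with 6.11, 6.04 and 5.28 in brain and a bound of 1398-fold. AK079356 and C130071C03Rik, shown above, do not overlap a coding gene in the tables. AK079356 was at 6.18, 6.26 and 6.92 in brain, at least 1971-fold higher, and C130071C03Rik at 4.46, 4.70 and 4.66, at least 607-fold higher. The remaining lncRNAs of this rank were those of Phkg1, a subunit of phosphorylase kinase (at least 960-fold), AK021280 (at least 602-fold) and AK053689 at Ntng1, a gene for an axonal adhesion protein (at least 559-fold).

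Of the named testis-only lncRNAs, the one with the largest bound was 1700027A15Rik, intergenic on chromosome 1. Its levels were 8.04, 8.57 and 8.53 in testis and -5.82, -5.30 and -5.60 in brain, at least 3716-fold apart. AK005929, antisense to exons of Ubox5, was at 7.57, 7.91 and 7.72 in testis and at least 2378-fold higher there. Both were below background on every brain array. Kcnmb4os1 (at least 2048-fold), AK017048 (2010-fold), 4933432K03Rik (1801-fold), 4930544D05Rik (1671-fold) and 1700029H14Rik (1286-fold) followed. A transcript of Adam5, a relative of the sperm surface proteins, was at 6.83, 6.76 and 6.81 against -4.79, -3.87 and -4.66, at least 1247-fold. All of these lncRNAs but Adam5 are also among the lncRNAs for which the study lists RT-PCR primers, described below.

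**Figure D2:**
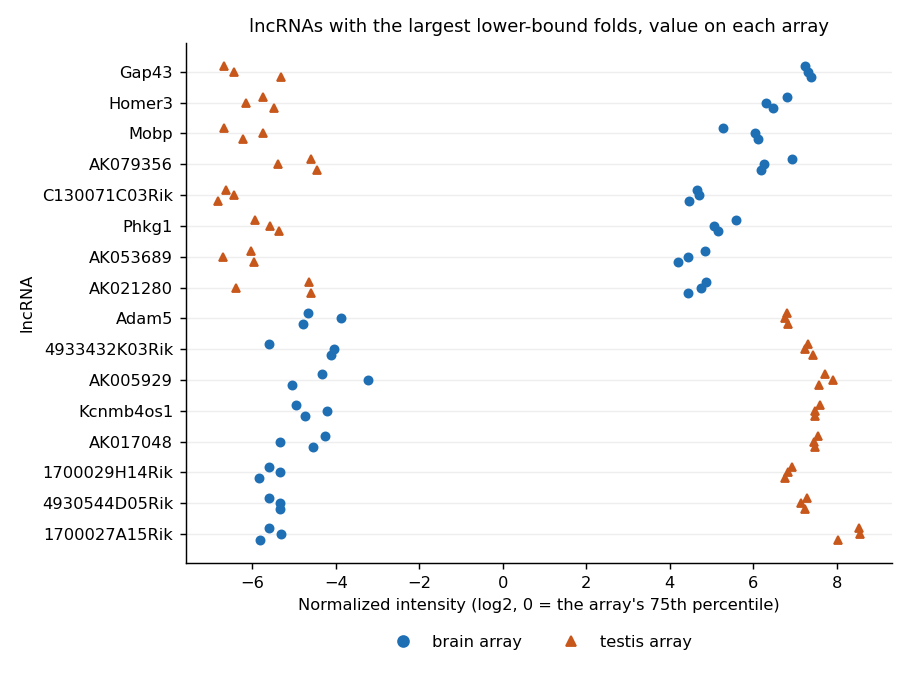
Level (x axis, log2, 0 is the 75th percentile of the array) of the 8 brain-only and the 8 testis-only lncRNAs with the largest lower-bound folds, 1 per row, on each of the 3 brain arrays (circles) and 3 testis arrays (triangles). The tissues do not overlap in any row, and the values on the low side are all below the background threshold and have no order among themselves.

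Genes of the synapse were represented by lncRNAs that were almost all higher in brain, against 15.1% of all transcripts. Most of them, 11 of 13 for receptors and channels, 8 of 9 for adhesion and 7 of 7 for vesicles, were on the list of brain-specific lncRNAs. That list was made by the study from these same arrays, so the direction of its members is not independent evidence. The medians below include fitted differences against values under background, and a second median is given in which each transcript found in 1 tissue alone stands at its lower bound. Of the receptor and channel lncRNAs, 12 of 13 were called higher in brain, with a median difference of 6.11 (4.45 with the bounds). A lncRNA of Gria1, an AMPA-type glutamate receptor subunit, was at 5.27, 5.15 and 5.72 in brain and -2.84, -2.32 and -2.21 in testis, a difference of 7.84 (SE 0.26). That of Grm5, a metabotropic glutamate receptor, differed by 8.26 (SE 0.45), with 1 testis array above background, and that of Grin2a, an NMDA receptor subunit detected in brain alone, was at least 26.3-fold higher. Glrb, the beta subunit of the glycine receptor, was at least 48.9-fold and Gabra3, a GABA receptor subunit, at least 19.8-fold higher. The exception was the Grid1 lncRNA, from the gene of a delta-type glutamate receptor. It was at 7.07, 7.44 and 7.27 in brain and 6.90, 7.05 and 6.90 in testis, a difference of 0.31 (SE 0.20, adjusted p = 0.18, limma) that turned to -0.18 with the scaling on probes detected on all 6 arrays.

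For synaptic adhesion, 8 of 9 lncRNAs were called higher in brain (median 5.61, or 4.91 with the bounds). Those of Lrrtm1 and Lrrtm3, postsynaptic partners of neurexins, were at least 107-fold and 110-fold higher, and that of Kirrel3 at least 49.4-fold. The Nlgn2 lncRNA was again a shared transcript, at 4.44, 4.61 and 4.49 in brain and 3.86, 3.45 and 3.46 in testis, a difference of 0.92 (SE 0.21, adjusted p = 0.0040, limma). Its groups did not overlap, but its difference was close to the median of shared transcripts. For vesicle release and peptide processing, 7 of 7 were called (median 5.93, or 4.24 with the bounds). Snap25, part of the machinery that fuses synaptic vesicles, led with 1.74, 1.36 and 1.84 in brain, at least 77.8-fold higher. The lncRNA at Th, the gene of the first enzyme of dopamine synthesis, differed by 4.53 (SE 0.41), with 1 testis array above background. For the neuronal cytoskeleton and nucleus, 5 of 5 were called (median 5.69, or 4.67 with the bounds), Gap43 among them. All 8 lncRNAs of myelin and glia genes were called (median 5.95, or 4.27 with the bounds), against 15.1% of all transcripts called toward brain. Here too, 5 of the 5 and 7 of the 8 were on the list of brain-specific lncRNAs, so these counts are not independent evidence of direction. Among them were Slco1c1, a thyroid hormone transporter of astrocytes and vessels (at least 69.7-fold), and Aldoc, an astrocytic aldolase (difference 6.81, SE 0.22). Many of these lncRNAs share exons with their coding gene, and signal from the mRNA cannot be told apart from theirs here.

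Transcripts antisense to or opposite from regulatory genes were 5 of 5 called higher in brain (median 5.17, or 3.22 with the bounds), against 15.1% of all transcripts. All 5 were on the same list of brain-specific lncRNAs, so this count is not independent evidence either. Dlx1as, opposite a homeobox gene of inhibitory neurons, was at 3.09, 3.31 and 2.74 in brain and -4.29, -5.40 and -4.68 in testis, a difference of 7.83 (SE 0.32) with 1 testis array above background. Dlx6os1 was at least 28.5-fold, Foxl2os 9.3-fold, Srrm4os 8.2-fold and Six3os1 5.7-fold higher in brain. The values of the last 3 in brain were between -2.28 and -1.14, close above the background threshold.

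All 18 probes of the sperm and germ cell lncRNAs were called higher in testis (median -10.12, or -8.20 with the bounds), against 12.3% of all transcripts. All 18 came from the study's tables of testis-specific lncRNAs, which were made from these same arrays, so the count was fixed by that choice. Svip, Rbakdn and Kcnmb4os1 on this list are not named for sperm or germ cells. They are counted again among the lncRNAs with RT-PCR primers below. The lncRNA of Cylc2, which encodes a cytoskeletal protein of the sperm head, was at 6.06, 6.41 and 6.85 in testis and -5.84, -5.29 and -5.60 in brain, at least 971-fold higher. Adam18 was at least 535-fold and Zpbp2, from a gene for binding the egg coat, at least 236-fold higher. At the low end, Plcz1, whose protein activates the egg, and Tcp10a were at least 4.96-fold and 6.94-fold higher. The bound is limited by the level in testis, which for Plcz1 was -1.49, -1.08 and -0.94. The lncRNAs with listed RT-PCR primers had 26 probes, all on the study's list of testis-specific lncRNAs. All 26 were called, which their choice on these arrays had fixed (median -11.41, or -10.13 with the bounds). Of these, 18 were testis-only, while the other 8 were above background on 1 or 2 brain arrays. Spn-ps was one of the latter, at -2.90, -2.83 and -3.31 in brain and 7.67, 7.71 and 7.70 in testis.

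The mRNAs that could be identified came from the study's table of testis-specific mRNAs, also made from these arrays, so their counts are no independent evidence either. Over all transcripts, 12.3% were called toward testis. All 11 probes of meiosis and piRNA genes were called (median -5.58, or -3.39 with the bounds). Gtsf1, a piRNA pathway protein, differed by -10.23 (SE 0.50) with 1 brain array above background. Morc1 and Trip13 were testis-only, at least 3.7-fold and 2.8-fold higher there. All 10 cell division genes were called and testis-only (median -5.54, or -3.99 with the bounds). Top2a, the topoisomerase of dividing cells, was at 3.02, 2.68 and 2.44 in testis and -3.49, -3.35 and -3.46 in brain, at least 67.2-fold higher. Of the sperm mRNAs 9 of 10 were called (median -8.96, or -8.06 with the bounds). Oxct2b differed by -12.59 (SE 0.34), with 1 brain array above background. Spata6, likewise with 1 brain array above background, was at -2.22 (SE 0.23), just short of 5-fold, and passed without brain replicate 1 (-2.39) or testis replicate 2 (-2.33). Star, which carries cholesterol into mitochondria of Leydig cells, differed by -6.16 (SE 0.36), again with 1 brain array above background.

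**Figure D3:**
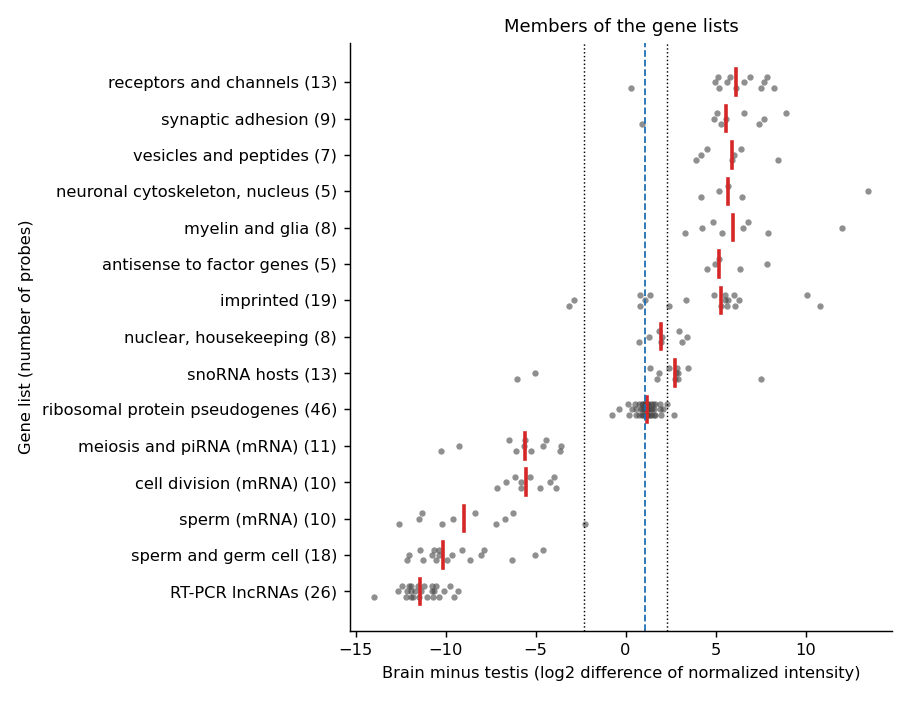
Difference between brain and testis (x axis, log2) of every probe (points) of the gene lists (rows, number of probes in brackets). Red bars are list medians, which include fitted differences of probes below background in 1 tissue, the dashed line the median of all transcripts at 1.06 and dotted lines 5-fold. Lists of neuronal and glial genes have medians of 5.61 to 6.11. The lists for meiosis, cell division, sperm, germ cells and RT-PCR lncRNAs have medians of -5.54 to -11.41. The ribosomal protein pseudogenes lie around the dashed line with a median of 1.17.

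The imprinted loci had 19 probes of 8 symbols, and 13 were called toward brain and 2 toward testis, against 15.1% and 12.3% of all transcripts (median 5.33, or 3.42 with the bounds). Of the 13, 10 belong to Meg3 and Rian of 1 imprinted cluster, and 8 of the 13 and both called toward testis were on the study's tissue-specific lists, Airn on that of heart. The study's list of brain lncRNAs held 10 of the 19 probes, so their direction is not independent evidence. All 4 probes of Rian, which lies downstream of Meg3, were brain-only and at least 10.0-fold to 20.9-fold higher there. Peg13 was shared, at 7.42, 7.47 and 7.78 in brain and 1.88, 1.90 and 1.92 in testis, a difference of 5.66 (SE 0.20). Nnat was brain-only as well, at least 10.97-fold higher. Others were closer to the offset. H19 was at 8.47, 9.65 and 9.33 against 7.64, 8.66 and 8.66, and the groups overlapped (difference 0.83, SE 0.40, adjusted p = 0.085, limma). Kcnq1ot1 differed by 1.34 (SE 0.21). Airn differed by 2.43 (SE 0.52), was well above background on 1 brain array and 0 testis arrays, and fell short of 5-fold without brain replicate 1 (2.09), brain replicate 3 (2.12) or testis replicate 3 (2.30). At Nespos, the antisense transcript of the Gnas locus, NR_002846 was shared with a difference of 1.07, while ENSMUST00000143738 and ENSMUST00000150276 were testis-only. The last of these were at -1.96, -0.83 and -1.02, and at -3.20, -1.99 and -2.23, in testis, and their bounds were only 4.3-fold and 2.0-fold.

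The 7 probes of Meg3 did not give 1 answer. NR_046475, near the 3' end of the 30.7-kb gene, was at 4.23, 5.06 and 4.04 in brain and -6.28, -6.09 and -6.80 in testis, at least 542-fold higher. NR_027651, whose probe starts 27.2 kb from the gene start, was at 6.37, 6.76 and 5.76 against -3.5, -3.85 and -3.99, a difference of 10.08 (SE 0.29). In the first 5 kb, ENSMUST00000129245 and NR_003633 differed by 6.29 (SE 0.55) and 6.08 (SE 0.51). All 4 probes had brain above testis on every array, the first pair by far more than the second. Of the 2 other probes with a listed position, uc007pat.2 has a span that starts at 17.3 kb and ends on the same base as that of NR_027651. It was at 4.13, 5.08 and 3.93 in brain and 0.97, 1.20 and 0.95 in testis, a called difference of 3.34 (SE 0.32). The other, ENSMUST00000150851 at 8.42 kb, was at 7.15, 6.94 and 7.01 in brain and 6.31, 6.19 and 6.11 in testis, a difference of 0.83 (SE 0.19), below the median of shared transcripts. Its 60-base sequence has a GC content of 60%, that of the 3 other Meg3 probes shown above 45%. Testis values were also less uniform for the early probes, -1.49, 0.69 and -0.16 for ENSMUST00000129245, with replicate 1 the lowest. The remaining probe, ENSMUST00000128178, has no listed position and was brain-only, at least 21.4-fold higher there. The probes of NR_046475 and uc007pat.2 are listed as matching each other's transcripts, and that of NR_027651 as also matching NR_003633. Their differences were nevertheless unlike, so position along the gene does not alone order the probes. Whether the probes read different transcripts or other RNA was not tested.

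**Figure D4:**
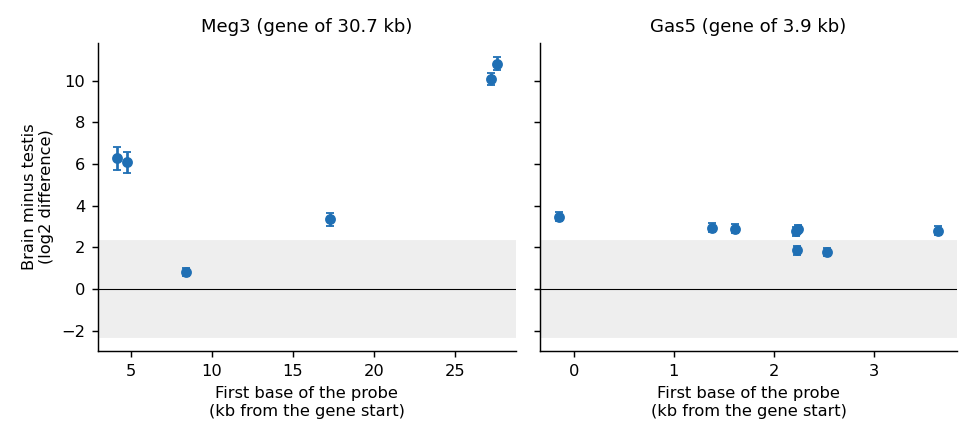
Difference between brain and testis (y axes, log2, with SE from limma) for each probe of Meg3 (left) and Gas5 (right) with a listed position, by the distance of its first base from the start of the gene (x axes, kb). The grey band is under 5-fold. Meg3 probes range from 0.83 to 10.83 along the gene, the highest being a fitted difference of NR_046475, which was below background in testis, and Gas5 probes from 1.77 to 3.47.

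Hosts of small nucleolar RNAs carry these RNAs in their introns, and their spliced exons are lncRNAs. Of their 13 probes, 8 were called toward brain and 2 toward testis, against 15.1% and 12.3% of all transcripts (median 2.76). On the study's list of brain lncRNAs were 9 of the 13, so their direction is not independent evidence. Gas5 had 9 of the probes and 6 of the 8 calls toward brain, and both called toward testis were on the study's testis-specific lists. The 8 that were shared all put brain higher, by 1.77 to 3.47, and 6 of them were called. ENSMUST00000159663, for example, was at 8.28, 8.26 and 7.87 in brain and 5.23, 5.31 and 5.26 in testis (difference 2.87, SE 0.20). The ninth, ENSMUST00000159706, went the other way. It was below background on the brain arrays, at -3.96, -3.43 and -3.55, and at 1.34, 1.39 and 1.38 in testis, at least 28.9-fold higher there. The probes of ENSMUST00000160429 and ENSMUST00000162558 are listed as also matching this transcript, and they were called toward brain (2.76 and 2.90). Several of the shared Gas5 probes are also listed as matching each other's transcripts, so they are not separate measurements. Which transcript each probe read was not tested. Of the 27 symbols with 3 or more named lncRNA probes, Gas5 was the only one with calls in both directions. The spread between probes of 1 symbol was over 5-fold for 12 of these 27, with a median of 1.86 on the log2 scale.

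Other hosts were split in the same manner. Snhg11 was brain-only, at 1.38, 1.07 and 0.04, and at least 44.3-fold higher there. Snhg3 ENSMUST00000155816 was testis-only, at 1.20, 1.51 and 1.65, and at least 30.6-fold higher there. Snhg1 differed by 1.38 (SE 0.24) and Snhg6 by 2.44 (SE 0.21). The call for Snhg6 was lost without brain replicate 2, where the difference was 2.30.

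The abundant nuclear and housekeeping lncRNAs were all shared and all had brain above testis, with 3 of 8 probes called (median 1.99), against 16.9% of shared transcripts. Of the 8 probes, 7 were on the study's list of brain lncRNAs. Of that list's members held here, 24.2% were called toward brain and 0.583% toward testis (median 1.42). The common direction is therefore not independent evidence. All 3 belong to Malat1. The 3 probes of Malat1, a lncRNA of nuclear speckles, differed by 2.99, 3.14 and 3.43. The last was at 5.06, 6.01 and 6.19 against 1.42, 3.35 and 2.22, with the lowest value of each tissue in replicate 1. Neat1, which builds paraspeckles, was at 5.14, 5.27 and 4.94 against 1.83, 4.13 and 3.51. Its difference of 1.96 (SE 0.53) was not called, but was 2.45 and called without testis replicate 2. Tug1 differed by 0.76 (SE 0.22) and Rn45s, the ribosomal RNA precursor, by 1.30 (SE 0.20). Dancr differed by 2.03 and Rpph1, the RNA of ribonuclease P, by 1.85. Tug1 lay within its error of the median of shared transcripts, and Malat1 well above it.

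A list that was not chosen on brain or testis gives a view less selected on these tissues. The part held here of the study's table of lncRNAs in F9 cells, an embryonal carcinoma line, identified 1397 probes. Of them, 1390 were shared by brain and testis. Its members were chosen by their level in F9 cells, so these counts may not hold for all lncRNAs of that line. Of the 1397, 185 (13.2%) were called toward brain and 34 (2.43%) toward testis, with a median difference of 1.19. Over all shared transcripts these shares were 16.9% and 8.24%, so neither share on the list was above them. By class of lncRNA, the medians lay between 1.1 for intronic antisense and 1.37 for bidirectional transcripts. The share called toward brain ran from 7.41% for exonic antisense to 18.2% for intronic sense, and that toward testis from 0.588% for intronic antisense to 5.71% for bidirectional transcripts. Differences between classes were not tested. On the X chromosome, 27 of 166 probes were called toward brain and 7 toward testis, and 42 were below 0 (median 1.05). On autosomes, 156 and 27 of 1225 were called (median 1.21).

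The shared F9 list lncRNAs with the largest differences toward testis were AK131696, antisense to the ciliary assembly gene Dnaaf3, and AK006989, intergenic on chromosome 13. AK131696 was at 5.10, 5.11 and 5.04 in testis and -1.23, -1.17 and -1.69 in brain, 87.0-fold higher (difference -6.44, SE 0.22, adjusted p = 1.09e-07, limma). AK006989 was at 5.73, 6.11 and 5.96 against -0.22, -0.42 and -0.68, 82.9-fold higher. These transcripts lie on different chromosomes, but their probes share 29 or 30 of their bases in runs of 9 or more, as shown above, so they may not be separate measurements. Gm7856, a pseudogene of chromosome 16, was 69.4-fold higher in testis. The lncRNAs of the mitotic genes Cdc20 and Cks2 were 57.6-fold and 46.9-fold higher in testis, and AK215672, at the lipid synthesis gene Agpat2, 61.9-fold. The AK215672 probe is also listed as matching an mRNA, so its signal may not be that of the lncRNA alone.

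Toward brain, Meg3 NR_003633 (67.8-fold) was followed by a lncRNA of Uba6, which encodes a ubiquitin-activating enzyme. The Uba6 probe was at 10.12, 10.35 and 9.96 in brain and 4.05, 5.13 and 4.88 in testis, 43.8-fold higher (difference 5.45, SE 0.31, adjusted p = 1.74e-06, limma). The last 37 bases of this probe line up with the first 37 bases of Bc1, 35 of them identical. The differences are T12C and C30T, where Bc1's base comes first, then the position from its 5' end, then the probe's base. Of 1817 probe sequences, this was the only one with a run of 12 bases from the start of Bc1. Whether the probe read Bc1 or the Uba6 transcript was not tested. Gm13460, inside Lrp1b (33.4-fold), Gm12634 (31.9-fold), Gm14042 (31.5-fold) and AK177800, at Tcf25 (30.5-fold), completed this rank. The AK177800 probe is also listed as matching mRNAs, so its signal may not be that of the lncRNA alone. Gm13460 was uneven in testis, at -1.99, -0.27 and -0.02.

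At the other end, some lncRNAs with strong signal hardly separated the tissues. humanlincRNA1677 was at 9.41, 9.34 and 9.06 in brain and 9.20, 9.17 and 9.23 in testis (difference 0.07, SE 0.20, adjusted p = 0.74, limma). Gm8648 differed by 0.30 (SE 0.20), Gins1 by 0.46 (SE 0.23) and Gm14000 by -0.32 (SE 0.20), with adjusted p values of 0.098 or more (limma). The groups of humanlincRNA1677 overlapped. Its probe is also listed as matching mRNAs, so its signal may not be that of the lncRNA alone. The first 3 turned negative under other scalings, humanlincRNA1677 to as low as -0.88 with quantile normalization, so no order between the tissues can be given for them. The 46 ribosomal protein pseudogenes were all shared, and 1 of them was called (Rpl10-ps4, 2.69). Without the fold criterion, 39 reached an adjusted p of 0.05 or less toward brain and 1 toward testis (limma), against 58.4% and 21.4% of all transcripts. The brain arrays lay above the testis arrays for 40 of the 46, and the groups overlapped for 5. The differences ran from -0.77 to 2.69 around a median of 1.17, near the offset left by the scaling.

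Many of the named lncRNA probes were not separate in sequence. Among 1817 probes with a listed sequence, 320 (17.6%) fell into 27 groups of 5 or more members, in which each shared a run of 16 bases with another. Within a group the differences had a median SD of 0.17, compared with 2.17 over all 1817. The widest was the AK016356 group of 12, with an SD of 0.68 and differences of -0.97 to 0.88, so that its members pointed both ways. The largest group, of 81 probes on 20 chromosomes, ranged from 0.60 to 2.16 with none called. A group of 30 predicted genes on 11 chromosomes, among them Gm5706, Gm13466 and Gm14113, was called toward brain in all 30. The median level of these probes was 8.33, 8.45 and 8.60 on the brain arrays and 4.21, 4.55 and 4.76 on the testis arrays. Their differences ran from 2.77 to 4.80 (median 3.82). The run they share, in capitals above, belongs to the family of Gapdh, a glycolytic enzyme with many processed pseudogenes. That reading rests on general knowledge of the Gapdh coding sequence and not on the deposited files.

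A second group of 6 probes, of which 4 are listed as also matching a Gapdh transcript, was called toward brain in 6 of 6, with differences of 2.67 to 3.46. With quantile normalization 29 of the 30 and 1 of the 6 were called. The 36 probes of both groups were all among the 185 F9 list lncRNAs called toward brain, of which 37 in all (20%) lay in such groups. Over the whole F9 list the share was similar, 307 of 1397 probes (22.0%). None of the 34 called toward testis lay in a group. A group of 6 pseudogenes that includes Ldha-ps2, named after the glycolytic enzyme lactate dehydrogenase A, moved the other way. The median level of its probes was 4.74, 4.83 and 4.73 on the brain arrays and 5.93, 5.82 and 5.87 on the testis arrays. The differences ran from -1.23 to -0.99, all with an adjusted p of 0.00185 or less (limma), and were under 5-fold. The lncRNA uc009gzn.2 of Ldha itself was at 5.84, 6.0 and 5.90 in brain and 6.76, 6.90 and 7.06 in testis (difference -0.997, SE 0.19). The median of the Ldha-ps2 group lay between -1.13 and -1.67 under every scaling tried, so its direction did not depend on that choice. Which transcript such probes read was not tested, and the probes of a group are not independent.

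**Figure D5:**
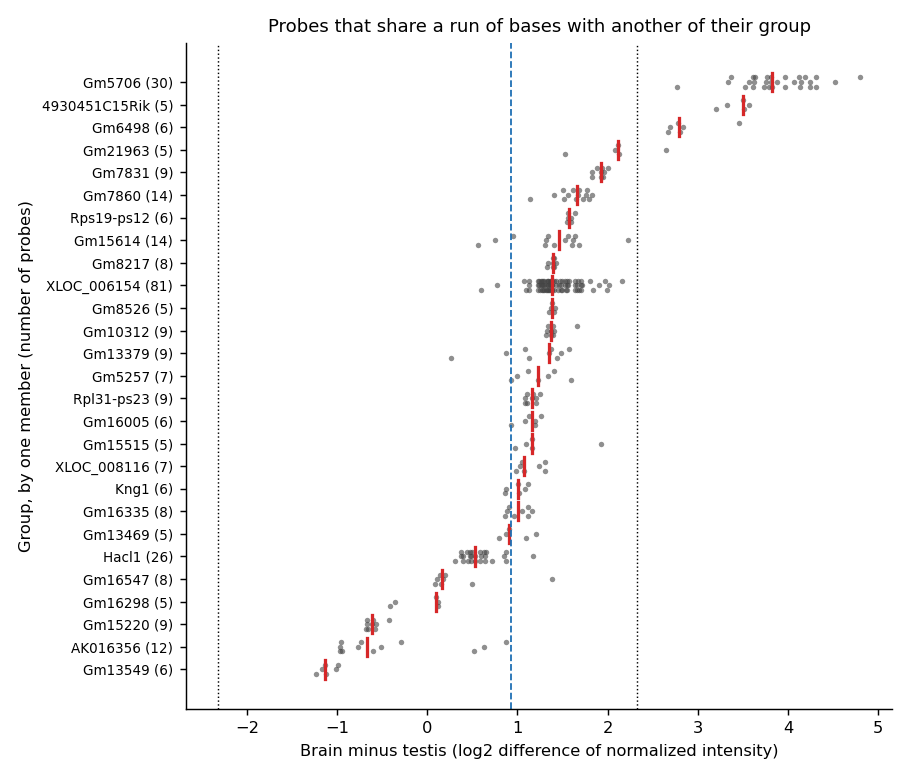
Difference between brain and testis (x axis, log2) of the probes (points) in the 27 groups that share runs of 16 bases, each group named by 1 member with its number of probes in brackets. Red bars are group medians, the dashed line is the median of shared transcripts at 0.93 and dotted lines are 5-fold. The Gm5706 group of 30 lies wholly to the right of 5-fold, and the Gm13549 group of 6, which includes Ldha-ps2, is lowest.

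Neighbouring lncRNAs could point in opposite directions. Chromosome 18 was left out, and only entries next to each other in the order of their starts were compared. Among the 2048 named lncRNAs with a position on the other chromosomes, 203 such pairs overlapped or lay within 20 kb. Pairs of probes from the same gene were included. Of these pairs, 4 were called in opposite directions. Over all transcripts, 15.1% were called toward brain and 12.3% toward testis. Fbxw10, Gm13434 and AK016793 below were named from the study's testis-specific lists, and their neighbours are on its list of brain lncRNAs. AK085773 is on that brain list too. Both kinds of list were made from these same arrays, so the opposite directions are not independent evidence. On chromosome 11, the Fbxw10 lncRNA (chr11:62847123-62877462) was testis-only, at 2.66, 2.75 and 2.59 in testis, and at least 71.0-fold higher there. The Tvp23b lncRNA, 6.20 kb away on the same strand (chr11:62883662-62916780), was at 6.01, 6.13 and 6.27 in brain and -1.60, -1.47 and -1.57 in testis, a difference of 7.68 (SE 0.19). No array of 1 tissue overlapped the other for either transcript. Also on chromosome 11, AK085773, which starts beside Arhgef15, was higher in brain by 10.08 (SE 0.53, with 2 testis arrays above background), and the Rangrf lncRNA, 14.4 kb away on the other strand, higher in testis (-3.71, SE 0.23). On chromosome 2, Gm13437, shared and higher in brain by 3.19, lay 5.83 kb from Gm13434, testis-only and at least 5.41-fold higher there. On chromosome 6, AK016793, testis-only and at least 144-fold higher, lay 5.11 kb from AK197526, shared and higher in brain by 2.91.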

How the data were processed

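RNA of 3 brain and 3 testis samples was compared on single-colour arrays. The authors deposited 1 Feature Extraction file per array with the intensity of each spot, raw and after background subtraction and detrending, and with flags, not normalized between arrays. The deposited matrix of intensities, which holds the same processed signal, served as an alternative. The methods name GeneSpring GX for the authors' own normalization, which was not repeated. Each array's 75th percentile over its 60804 transcript probes was subtracted from the log2 of the processed intensities. The 44 spots flagged as non-uniform were left out. Differences were tested with limma 3.58.1 (lmFit and eBayes, R 4.3.3) on the 6 arrays, with Benjamini-Hochberg adjustment over all probes. A call needed 5-fold and an adjusted p of 0.05 or less. Tables were made with Python 3.11.15, pandas 2.3.3 and numpy 2.4.6, and figures with matplotlib 3.10.9.

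Names, classes, positions on GRCm38 and probe sequences came from the supplementary tables, which are held here in part, and Bc1 from RefSeq (GRCm38.p6). Named were the members of gene lists, the 8 brain-only and 8 testis-only lncRNAs with the largest lower-bound fold, and, of the shared F9 list lncRNAs, the 6 with the largest difference in each direction and 4 of the least different among the 100 brightest. The neighbouring pairs, the sequence groups and the Ldha lncRNA were chosen after their values were seen. Members and lists were chosen with earlier results of these data known. Same-numbered brain and testis samples deviated together, with correlations of 0.31, 0.15 and 0.22 over the 24982 shared transcripts, so the replicate number was tried as a block. Alternatives covered scaling, background correction, a filter, 15 tissue arrays in the fit, slide, the methods' t-test and each array left out. In simulated data, 41 of 50 transcripts raised by 3.5 and 37 of 50 raised by 2.5 were called. Of those lowered by the same amounts, 39 and 28 of 50 were called. There was 1 false call among the unchanged rest of the 60804. Far fewer transcripts were changed there than differed in the data, and no offset between tissues was simulated. The rates therefore do not describe the real comparison. The precision is limited by the number of arrays, 3 per tissue.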

Additional observations from a re-analysis of the deposited data

How the results depend on the processing

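The counts of calls, 9160 toward brain and 7451 toward testis, stayed within 1.5 times of these values under every alternative except normexp on the median signal, chosen after seeing the data, which gave 3492 and 3983. Leaving out each array gave 9094 to 9384 and 7384 to 7595, the replicate block 9104 and 7443, the slide as a block 9157 and 7454, slide 2 alone 9375 and 7589, and the methods' t-test with Benjamini-Hochberg adjustment 8988 and 7415. The block changed no call of a named transcript. Brain-only transcripts numbered 1307 with the looser flag and 5132 with 1 common threshold, testis-only 3304 with the looser flag. With each array left out, shared transcripts numbered 25057 to 25882, brain-only 2463 to 3025 and testis-only 6173 to 7049. Of the named lncRNAs, 131 were called (130 to 132 with each array left out), and of the list members 146 (145 to 148).

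Signs turned for 5 named transcripts. With the 75th percentile of probes detected on all 6 arrays, quantile normalization and the median of probes detected on each array, Grid1 went to -0.18, -0.16 and -0.23, Gins1 to -0.037, -0.45 and -0.081, and Gm8648 to -0.19, -0.72 and -0.23. humanlincRNA1677 went to -0.42, -0.88 and -0.46 with these, to -0.20 with the median of all probes and to -0.23 with normexp. Mup-ps18, in mixed detection at 1.79 (adjusted p = 0.097, limma), was -0.78 in the pair on slide 1 and 2.94 and called without testis replicate 1. The cause was not tested. Normexp on the mean signal was not run, because that column is not among those used here. For a probe not above background, only a limit from above is known.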
